A study of Mus musculus with 9 samples.

Results

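A set of 42 genes of mitosis and cytokinesis was followed across 3 preparations of mouse heart cells. The genes were grouped by known function, but the set was chosen with earlier results of these data known, so its counts are a description and no independent evidence of a direction. Among probes annotated to a single gene, the one with the highest mean across the 9 arrays stood for each of them. All 42 were measured, out of 19933 genes on the array. The annotation lists Sgol1 under its newer symbol Sgo1. Messenger RNA came from adult cardiac fibroblasts, embryonic cardiac fibroblasts and embryonic cardiomyocytes positive for Nkx-YFP, a fluorescent reporter named for a cardiac transcription factor gene, with 3 biological replicates in each group. The series was designed to find fibroblast factors that promote the proliferation of myocytes. The sources used here give no embryonic stage, adult age, strain or treatment, and do not say whether cells were cultured. Whether replicates came from separate animals or pools is not given either, so p-values measure the spread between these 9 RNA samples. Levels are log2 values from RMA, a method that corrects for background, makes arrays comparable and combines a transcript's probes into a single value.

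When a cell enters mitosis, condensins compact its chromosomes and kinetochores form on the centromeres. Motor proteins and spindle factors build the spindle that the kinetochores attach to. The spindle checkpoint delays anaphase until all chromosomes are attached, after which the central spindle and a contractile ring divide the cell. Most of these genes are transcribed in the G2 phase and mitosis and repressed in resting cells. In the mouse heart, cardiomyocytes divide before birth and largely stop soon after it, and fibroblasts of the uninjured adult heart divide rarely. In RNA from many cells, fewer dividing cells and less of a transcript in each cell cannot be told apart.

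All 42 genes had their lowest mean in adult fibroblasts, an intermediate mean in embryonic fibroblasts and their highest mean in embryonic cardiomyocytes. The mean over the 42 genes was 6.95, 6.95 and 7.18 on the adult fibroblast arrays, replicates 1 to 3. It was 8.92, 8.99 and 9.27 on the embryonic fibroblast arrays, and 9.93, 9.85 and 9.75 on the cardiomyocyte arrays. For 40 of the 42 genes the arrays of all 3 groups were fully separate. Over all genes this was counted for pairs of groups only, in either direction. The arrays did not overlap in 33.0% between adult and embryonic fibroblasts and 39.1% between embryonic fibroblasts and cardiomyocytes. Between adult fibroblasts and cardiomyocytes it was 45.9%. The exceptions among the 42 were Smc4 and Plk4, in which embryonic fibroblasts and cardiomyocytes overlapped.

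**Figure D1:**
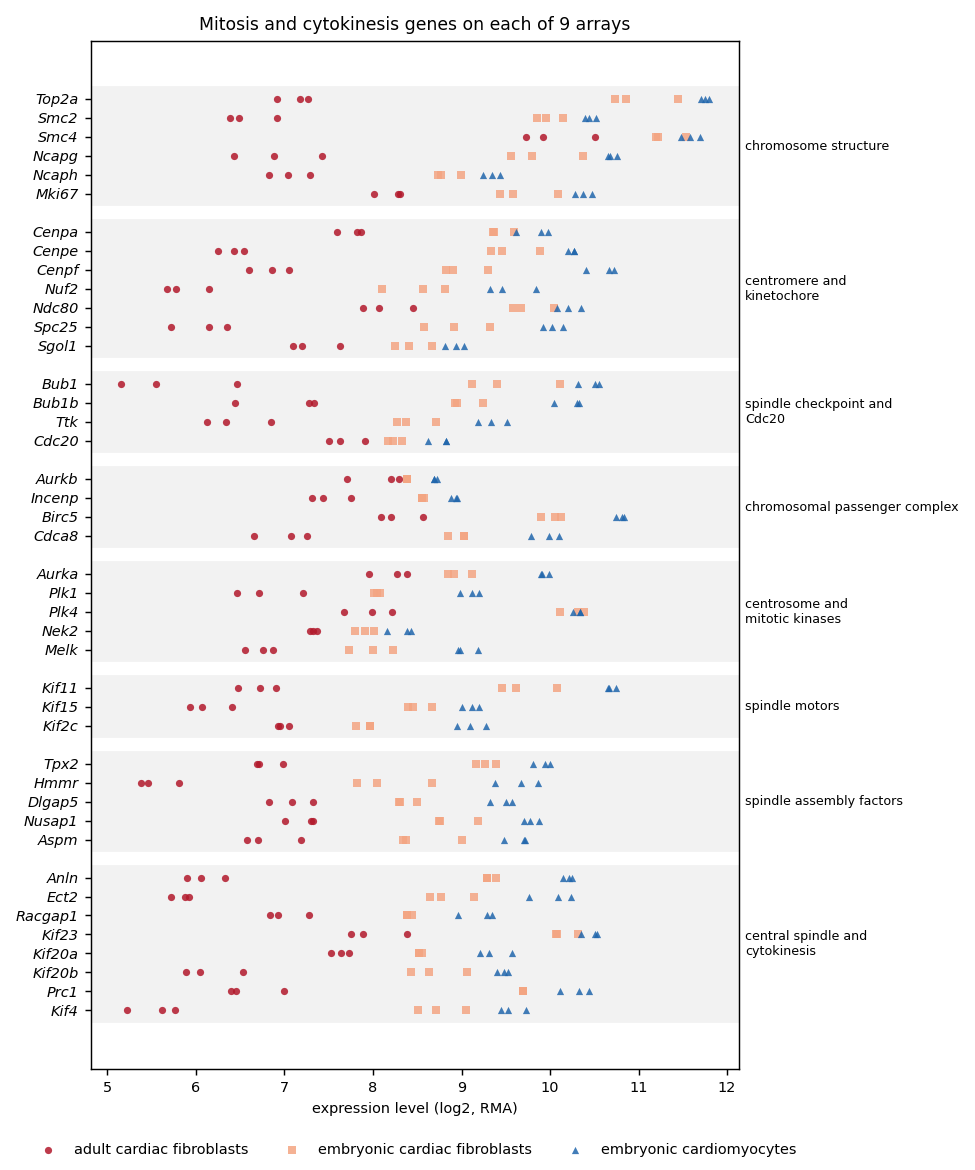
Level of each gene (log2, RMA, horizontal axis) on each of the 9 arrays, a point per array, with genes grouped by role down the page. Adult fibroblasts lie to the left of embryonic fibroblasts in all 42 genes, and embryonic fibroblasts lie to the left of cardiomyocytes without overlap in 40. Over all genes, 33.0% and 39.1% did not overlap in these comparisons, in either direction.

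Between adult and embryonic fibroblasts, 41 of the 42 genes were lower in the adult cells and 0 were higher by limma at an adjusted p under 0.05. Over all genes on the array, 11.2% were lower and 8.34% were higher in this comparison. The median log2 difference of the 42 genes was -1.99, a 3.98-fold difference, against a median of 0.04 over all genes. In 36 genes the difference was at least 2-fold, and in all 42 the arrays of the groups did not overlap, which held for 33.0% of all genes. The share of all genes with a difference of at least 2-fold was not counted in any comparison. Aurkb was the gene without a call.

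Between embryonic fibroblasts and embryonic cardiomyocytes, 34 of the 42 genes were lower in the fibroblasts and 0 were higher. The background was 11.1% lower and 10.3% higher. The median log2 difference was -0.79, a 1.73-fold difference, against a median of -0.0003 over all genes. The difference was at least 2-fold in 11 of the genes. The arrays did not overlap in 40 of the 42, against 39.1% of all genes. The 8 genes without a call were Smc4, Ncapg, Ndc80, Sgol1, Bub1, Aurkb, Plk4 and Kif23. The number of calls varied when an array was left out. It was 24 without embryonic fibroblast replicate 2, 26 without replicate 1 and 36 without replicate 3. Of all genes, 7.28%, 7.67% and 10.8% were lower in these fits. Leaving out cardiomyocyte replicates 1, 2 and 3 gave 26, 27 and 32 calls, beside 7.8%, 7.55% and 10.2% of all genes. With adult replicate 1, 2 or 3 left out there were 35, 34 and 37.

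Between adult fibroblasts and embryonic cardiomyocytes, which differ in age as well as cell type, all 42 genes were lower in the adult fibroblasts (background 18.2% lower and 17.4% higher). The median log2 difference was -2.70, and 40 genes differed by at least 2-fold. Bub1 showed the largest difference, 26.7-fold, followed by Top2a at 24.9-fold. The smallest was that of Aurkb, at 1.55-fold.

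**Figure D2:**
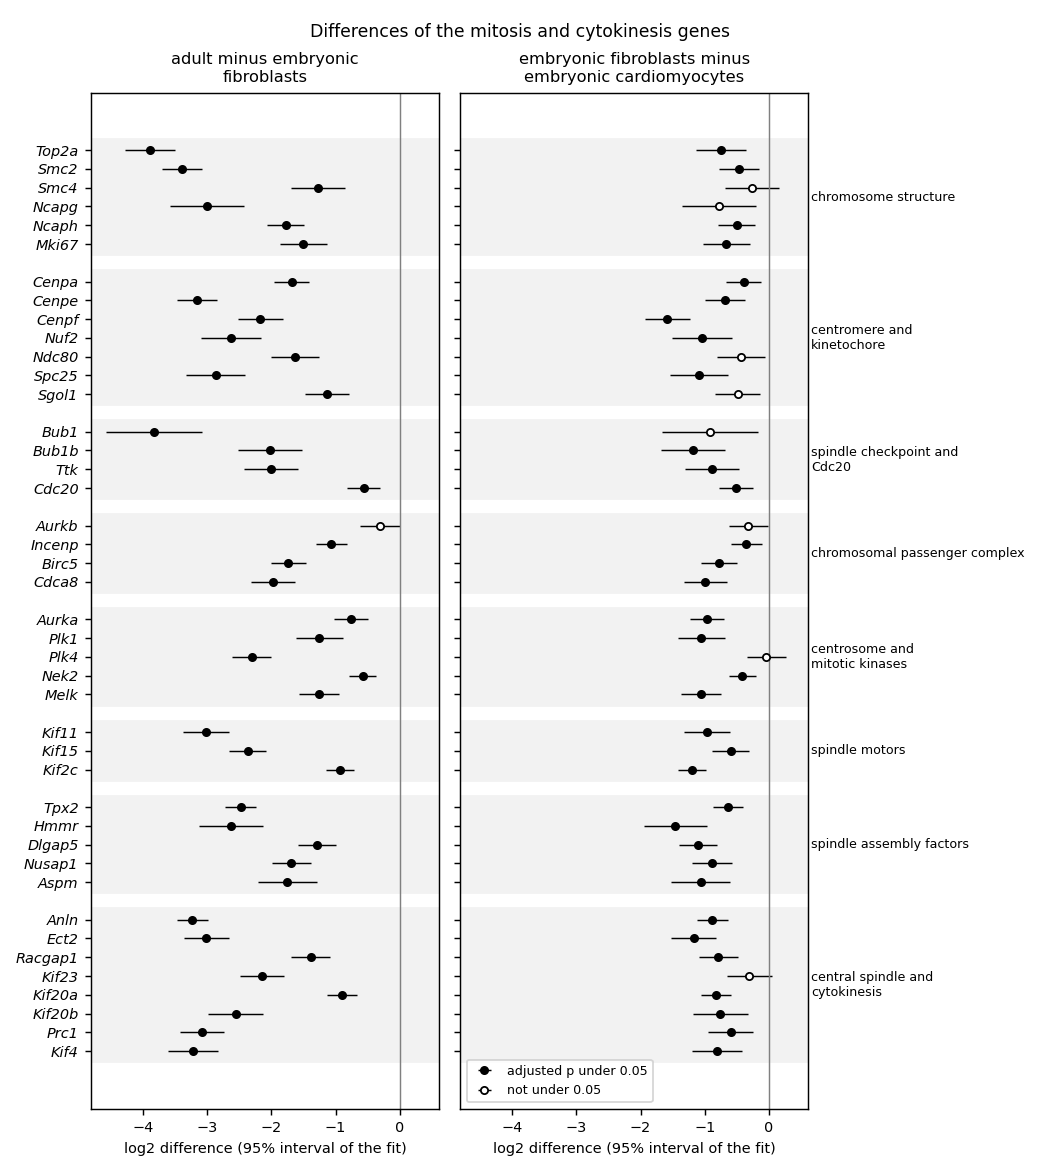
Log2 difference of each gene between adult and embryonic fibroblasts (left) and between embryonic fibroblasts and embryonic cardiomyocytes (right), with 95% intervals of the limma fit. Filled points have an adjusted p under 0.05, which holds for 41 genes on the left and 34 on the right, and all points lie below 0.

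Markers of other cell types also differed between the groups. The 12 cardiomyocyte markers, such as troponin and myosin genes, had list means from 7.84 to 8.26 on the adult fibroblast arrays, from 11.11 to 11.78 on the embryonic fibroblast arrays and from 12.57 to 12.68 on the cardiomyocyte arrays. All 12 were lower in adult than in embryonic fibroblasts, and 9 of 12 in embryonic fibroblasts than in cardiomyocytes, with no call for Tnnt2, Actc1 and Myl2. In the cells labelled embryonic fibroblasts these markers were far above the adult fibroblasts, by a median of 11.4-fold, and nearer to the cardiomyocytes, which were higher by a median of 2.41-fold. The troponin gene Tnnt2 averaged 9.83, 13.38 and 13.82 in adult fibroblasts, embryonic fibroblasts and cardiomyocytes. Fibroblast markers ran the other way, with 7 of 12 higher and 1 lower in adult than in embryonic fibroblasts, and 12 of 12 higher in embryonic fibroblasts than in cardiomyocytes. Endothelial markers were higher in embryonic fibroblasts than in cardiomyocytes in 10 of 12 cases and macrophage markers in 7 of 12. Between adult and embryonic fibroblasts, 1 endothelial marker was higher and 2 were lower, and 6 of 12 macrophage markers were higher. Of all genes, 8.34% were higher and 11.2% lower in this comparison, and 10.3% and 11.1% between embryonic fibroblasts and cardiomyocytes. The list means of the 12 endothelial markers ranged from 8.71 to 9.77 in adult fibroblasts, from 9.33 to 9.79 in embryonic fibroblasts and from 8.32 to 8.70 in cardiomyocytes. Those of the 12 macrophage markers ranged from 8.91 to 9.64, from 8.26 to 8.67 and from 7.62 to 7.70 in the same order of groups. Red cell markers, 8 of 10 of them measured, were lower in 3 cases in each of these comparisons. RMA values give no level below which a marker can be called absent. The part of these other cells in the levels of the mitotic genes was not tested.

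The Y-linked gene Eif2s3y lay between 4.67 and 5.10 in the adult fibroblasts, against 8.43 to 8.53 in the embryonic fibroblasts and 8.51 to 9.33 in the cardiomyocytes. Sex, which the labels do not give, and age therefore cannot be told apart. Adult fibroblast replicate 3 correlated less with its own group over all probes (mean Pearson's r = 0.970) than the other 8 arrays did (0.981 to 0.994). Without that array 42 of the 42 genes were lower in adult than in embryonic fibroblasts, as were 12.4% of all genes.

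**Figure D3:**
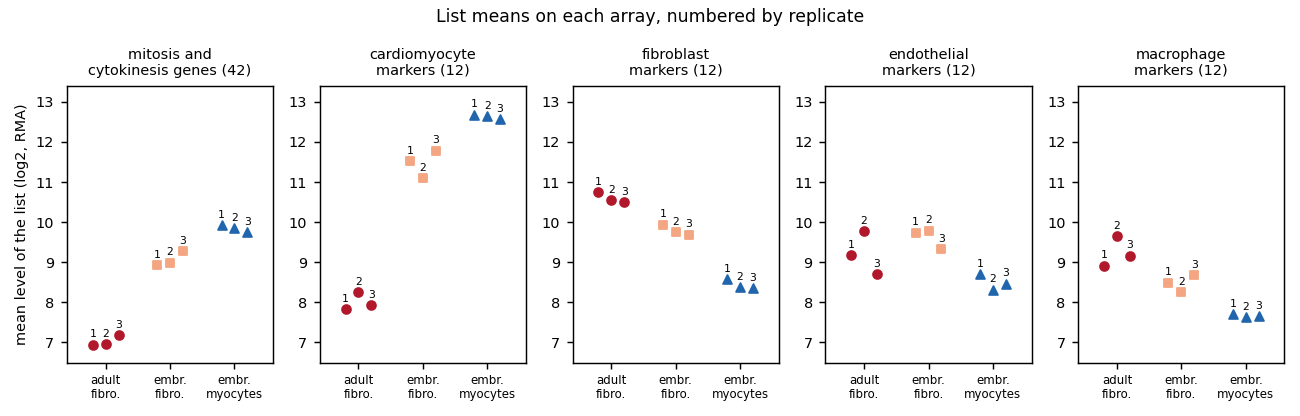
Mean level (log2, RMA) of the 42 mitosis and cytokinesis genes and of 4 marker lists on each array, numbered by replicate, with adult fibroblasts on the left of each panel and cardiomyocytes on the right. The mitotic mean lies between 6.95 and 7.18 in adult fibroblasts, between 8.92 and 9.27 in embryonic fibroblasts and between 9.75 and 9.93 in cardiomyocytes, and the cardiomyocyte markers run in the same order of groups.

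The arrays of a group also differed from each other across many of the genes at once. Adult fibroblast replicate 3 was the highest adult array in 26 of 42 genes. Embryonic fibroblast replicate 3 was the highest of its group in 36 genes and the lowest in 0. Among the cardiomyocytes, replicate 1 was the highest in 30 genes and replicate 3 the lowest in 33. Embryonic fibroblast replicate 3 also had the highest cardiomyocyte marker mean of its group (11.78, against 11.52 and 11.11 in replicates 1 and 2) and the lowest endothelial mean (9.33, against 9.74 and 9.79). Its macrophage mean was the highest (8.67, against 8.49 and 8.26) and its fibroblast mean the lowest (9.69, against 9.94 and 9.75). Replicate 2 had a higher mitotic mean than replicate 1 (8.99 against 8.92) and a lower cardiomyocyte marker mean. A link between these means was not tested. The median SD of the 42 genes was 0.25 in adult fibroblasts, 0.16 in embryonic fibroblasts and 0.11 in cardiomyocytes, against 0.14, 0.10 and 0.10 over all genes. In embryonic fibroblasts 8 of the genes held the same value to 3 decimals on at least 2 arrays, a share of 19.0%, and Prc1 held it on all 3. Such ties were found for 14.0% of all genes in that group. They occurred in 0 of the 42 genes in adult fibroblasts and in cardiomyocytes, where 8.77% and 9.78% of all genes had them. A tied gene has a small SD.

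All 42 genes ran in the same order of groups, and their RefSeq promoters were searched for the letters of 2 elements known from mitotic genes. The first was the cell cycle genes homology region, or CHR, with the letters TTTGAA. It is bound by MuvB complexes, which repress such genes in resting cells and activate them with B-Myb and FoxM1 in dividing ones. The second was the CCAAT box (CCAAT), bound by the activator NF-Y. Both strands of the 250 bases before each RefSeq start (GRCm38.p6) were searched, and a copy on the other strand reads TTCAAA or ATTGG. A promoter was matched for 36 of the 42 genes. The CHR letters were found in 10 of the 36 (27.8%), against 15.7% of the 15004 coding genes measured that had a promoter. The CCAAT letters were found in 24 of the 36 (66.7%), against 39.0%. Promoters with both made up 22.2% of the 36 and 5.65% of all. A CHR within 50 bases of the start, a distance chosen after the positions were seen, was found in 6 of the 36 (16.7%) and in 2.36% of all. In 58 promoters of other kinetochore, spindle, kinase and cytokinesis genes the shares were close to those of the 42 genes or above them for the CHR (29.3%), both elements (20.7%) and a CHR near the start (19.0%), and 53.4% held CCAAT letters. The same search covered 25 promoters of anaphase-promoting complex and cohesin genes and 18 of kinesins known outside division. The CHR was found in 20% and 16.7% of them, in this order, and CCAAT letters in 48% and 33.3%. A CHR near the start was found in 16% and 11.1%, also above the 2.36% of all. It was therefore not particular to the 42 genes. All of these are matches of letters, not sites of binding, and which starts heart cells use was not tested.

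The 150 bases before the start are printed for the 4 genes with a CHR in the searched window and the largest difference between adult fibroblasts and cardiomyocytes, with CHR and CCAAT letters of either strand in capitals. They lie at chr11:99024190-99024339 on the minus strand for Top2a, chr3:27153879-27154028 on the minus strand for Ect2, chr19:37376232-37376381 on the plus strand for Kif11 and chr4:52439071-52439220 on the plus strand for Smc2, all in GRCm38.p6.
Top2a: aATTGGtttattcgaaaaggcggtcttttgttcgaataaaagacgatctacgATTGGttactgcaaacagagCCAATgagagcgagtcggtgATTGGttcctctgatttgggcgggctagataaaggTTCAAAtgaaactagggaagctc
Ect2: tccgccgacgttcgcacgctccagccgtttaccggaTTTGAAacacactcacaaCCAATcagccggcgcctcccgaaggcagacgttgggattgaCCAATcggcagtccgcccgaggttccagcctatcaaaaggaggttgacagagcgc
Kif11: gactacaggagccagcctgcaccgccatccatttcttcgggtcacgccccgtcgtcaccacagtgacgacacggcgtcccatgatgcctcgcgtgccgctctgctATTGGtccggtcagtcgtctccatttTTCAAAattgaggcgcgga
Smc2: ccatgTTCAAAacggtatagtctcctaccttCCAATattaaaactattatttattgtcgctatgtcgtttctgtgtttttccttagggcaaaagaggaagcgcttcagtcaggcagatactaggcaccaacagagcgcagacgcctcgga
In Top2a and Kif11 the CHR begins 23 and 19 bases before the start, and CCAAT letters lie further upstream, nearest at 58 and 45 bases. In Ect2 and Smc2 the CHR lies further out, 114 and 145 bases before the start, with CCAAT letters on its downstream side.

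The genes of chromosome structure were all lower in adult than in embryonic fibroblasts, 6 of 6 (background 11.2% lower). Top2a encodes the topoisomerase that untangles sister chromatids. Its level was 6.91, 7.17 and 7.27 in adult fibroblasts, 10.73, 10.86 and 11.44 in embryonic fibroblasts, and 11.80, 11.75 and 11.71 in cardiomyocytes. The 3 groups did not overlap, and the gap between the fibroblast groups was the widest among the 42 genes. Top2a was 14.8-fold lower in adult than in embryonic fibroblasts (log2 difference -3.89 ± 0.17, SE, n = 3 per group, limma adjusted p = 1.37e-06) and 1.67-fold lower in embryonic fibroblasts than in cardiomyocytes (-0.74 ± 0.17, limma adjusted p = 0.0131). A second, dimmer Top2a probe, with values from 5.22 to 6.93, did not pass the test in either comparison (-0.21 and -0.76).

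Smc2 and Smc4 are the ATPases of condensin, the complex that compacts chromosomes, and Ncapg and Ncaph are 2 of its other subunits. Smc2 had 6.38, 6.49 and 6.91 in adult fibroblasts, 9.86, 9.95 and 10.14 in embryonic fibroblasts, and 10.51, 10.44 and 10.39 in cardiomyocytes. It was 10.5-fold lower in adult than in embryonic fibroblasts. Its partner Smc4 had 9.72, 9.92 and 10.50 in adult fibroblasts, 11.20, 11.22 and 11.54 in embryonic fibroblasts, and 11.69, 11.48 and 11.58 in cardiomyocytes. The difference of Smc4 between the fibroblast groups was smaller, 2.42-fold (limma adjusted p = 0.00116), and between the embryonic groups it was not called (-0.27, 95% interval from -0.68 to 0.15). Ncapg had 6.43, 6.88 and 7.42 in adult fibroblasts, 9.56, 9.79 and 10.37 in embryonic fibroblasts, and 10.75, 10.65 and 10.68 in cardiomyocytes. It was 8.0-fold lower in adult than in embryonic fibroblasts, and the difference between the embryonic groups, which did not overlap, missed the threshold (-0.79 ± 0.26, limma adjusted p = 0.0573). Without embryonic fibroblast replicate 3 it passed (limma adjusted p = 0.0200), as it did without adult replicate 1 or 3 (0.0310 and 0.0160). It passed in 8 of 16 alternatives, with limma adjusted p from 0.0035 to 0.199. Ncaph was 3.43-fold lower in adult fibroblasts.

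Mki67 encodes Ki-67, a coat protein of mitotic chromosomes and a common marker of cycling cells. It had 8.01, 8.30 and 8.29 in adult fibroblasts, 9.44, 9.58 and 10.09 in embryonic fibroblasts, and 10.47, 10.37 and 10.28 in cardiomyocytes. All arrays of a group lay on their own side of the next group. The differences were 2.84-fold between adult and embryonic fibroblasts (limma adjusted p = 0.000194) and 1.59-fold between embryonic fibroblasts and cardiomyocytes (limma adjusted p = 0.0160). Calls between the embryonic groups were lost without embryonic fibroblast replicate 2 for Top2a, Smc2, Ncaph and Mki67 (limma adjusted p = 0.0581, 0.115, 0.0725 and 0.0676), and without embryonic fibroblast replicate 1 or cardiomyocyte replicate 1 for each of the 4 as well. Those of Smc2, Ncaph and Mki67 were also lost without cardiomyocyte replicate 2, and that of Smc2 without cardiomyocyte replicate 3.

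Genes of the centromere and kinetochore were lower in adult than in embryonic fibroblasts in 7 of 7 cases and lower in embryonic fibroblasts than in cardiomyocytes in 5 of 7. Cenpe encodes a kinesin that carries chromosomes to the spindle equator. It had 6.25, 6.54 and 6.43 in adult fibroblasts, 9.34, 9.46 and 9.89 in embryonic fibroblasts, and 10.27, 10.27 and 10.20 in cardiomyocytes. Cenpe was 8.90-fold lower in adult than in embryonic fibroblasts (-3.15 ± 0.14, limma adjusted p = 1.37e-06). Cenpf, a large protein of the outer kinetochore, had 6.61, 7.05 and 6.86 in adult fibroblasts, 8.83, 8.91 and 9.30 in embryonic fibroblasts, and 10.72, 10.66 and 10.41 in cardiomyocytes. Of the 42 genes it had the largest difference between the embryonic groups, 3.0-fold (-1.58 ± 0.15, limma adjusted p = 0.000212), beside 4.51-fold between adult and embryonic fibroblasts.

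Nuf2, Ndc80 and Spc25 belong to the Ndc80 complex, which grips the spindle microtubules. Spc25 had 5.72, 6.15 and 6.35 in adult fibroblasts, 8.57, 8.92 and 9.32 in embryonic fibroblasts, and 10.14, 10.03 and 9.92 in cardiomyocytes, all without overlap. It was 7.30-fold lower in adult than in embryonic fibroblasts and 2.13-fold lower in embryonic fibroblasts than in cardiomyocytes. Nuf2 was close to it, 6.18-fold and 2.07-fold lower in these comparisons. Ndc80 had 7.89, 8.45 and 8.07 in adult fibroblasts, 9.67, 9.58 and 10.05 in embryonic fibroblasts, and 10.35, 10.08 and 10.20 in cardiomyocytes. Its difference was 3.10-fold between adult and embryonic fibroblasts, and between the embryonic groups it was not called (-0.44, 95% interval from -0.81 to -0.07, limma adjusted p = 0.0925).

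Cenpa, the histone variant that marks centromeres, was 3.21-fold lower in adult than in embryonic fibroblasts and 1.31-fold lower in embryonic fibroblasts than in cardiomyocytes. Sgol1, which protects the cohesion of centromeres, had 7.63, 7.20 and 7.10 in adult fibroblasts, 8.41, 8.25 and 8.67 in embryonic fibroblasts, and 9.03, 8.94 and 8.81 in cardiomyocytes. The groups did not overlap. Sgol1 was 2.19-fold lower in adult than in embryonic fibroblasts (limma adjusted p = 0.000782), and its difference between the embryonic groups missed the threshold (-0.49 ± 0.15, limma adjusted p = 0.0520). Without embryonic fibroblast replicate 3, Ndc80 and Sgol1 passed it (limma adjusted p = 0.0371 and 0.0317), and Sgol1 also did so without adult replicate 1 or 3. Ndc80 passed in 3 of 16 alternatives, with limma adjusted p from 0.0268 to 0.285. For Sgol1 it was 6 of 16, with limma adjusted p from 0.0068 to 0.185. The embryonic call of Cenpa was lost without embryonic fibroblast replicate 1 or 2, cardiomyocyte replicate 1 or 2, or adult replicate 2 (limma adjusted p from 0.0536 to 0.162).

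The checkpoint kinases Bub1 and Ttk, their partner Bub1b and the anaphase activator Cdc20 were all lower in adult than in embryonic fibroblasts. Of all genes, 11.2% were lower there. Bub1 had 5.15, 5.55 and 6.46 in adult fibroblasts, 9.11, 9.40 and 10.12 in embryonic fibroblasts, and 10.51, 10.55 and 10.31 in cardiomyocytes. The groups did not overlap, but Bub1 had the widest spread of the 42 genes in both fibroblast groups, with an SD of 0.67 in the adult cells and 0.52 in the embryonic ones. It was 14.1-fold lower in adult than in embryonic fibroblasts (-3.82 ± 0.33, limma adjusted p = 5.38e-05). Between the embryonic groups the difference of 1.89-fold was not called (95% interval from -1.66 to -0.17 in log2, limma adjusted p = 0.0849). It passed with the embryonic groups fitted alone (limma adjusted p = 0.0258, over a range from 0.00334 to 0.269 in 16 alternatives), and without embryonic fibroblast replicate 3 or adult replicate 3 (0.0335 and 0.0166).

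Bub1b, a pseudokinase of the checkpoint complex, had 7.27, 7.33 and 6.44 in adult fibroblasts, 8.95, 8.93 and 9.24 in embryonic fibroblasts, and 10.30, 10.33 and 10.04 in cardiomyocytes. On adult replicate 3 it was low, where Bub1 and Ttk were high. Ttk had 6.13, 6.34 and 6.84 in adult fibroblasts, 8.27, 8.37 and 8.71 in embryonic fibroblasts, and 9.51, 9.33 and 9.19 in cardiomyocytes. Bub1b and Ttk were 4.07-fold and 4.03-fold lower in adult than in embryonic fibroblasts, and 2.27-fold and 1.86-fold lower in embryonic fibroblasts than in cardiomyocytes. Cdc20 differed less, by 1.48-fold (limma adjusted p = 0.00734) and 1.43-fold (limma adjusted p = 0.0114) in these comparisons. The embryonic call of Cdc20 was lost without embryonic fibroblast replicate 2 (limma adjusted p = 0.0506).

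The chromosomal passenger complex, which corrects faulty attachments and later sits at the cleavage site, consists of the kinase Aurkb, the scaffold Incenp, survivin (Birc5) and borealin (Cdca8). Aurkb had 8.20, 7.70 and 8.30 in adult fibroblasts, 8.38, 8.38 and 8.38 in embryonic fibroblasts, and 8.69, 8.69 and 8.72 in cardiomyocytes. The groups did not overlap, but the values lay close together. Its log2 difference was -0.31 between adult and embryonic fibroblasts (95% interval from -0.62 to -0.01, limma adjusted p = 0.157) and -0.32 between embryonic fibroblasts and cardiomyocytes (95% interval from -0.63 to -0.01, limma adjusted p = 0.140). The first was called without adult replicate 3 (limma adjusted p = 0.0399, over a range from 0.0399 to 0.301), and the second without adult replicate 2 (0.0105, over a range from 0.00658 to 0.269).

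Its partners showed larger differences. Birc5 had 8.21, 8.09 and 8.57 in adult fibroblasts, 10.12, 9.90 and 10.05 in embryonic fibroblasts, and 10.84, 10.82 and 10.75 in cardiomyocytes. Cdca8 had 7.25, 7.07 and 6.66 in adult fibroblasts, 8.85, 9.03 and 9.03 in embryonic fibroblasts, and 10.10, 9.78 and 9.99 in cardiomyocytes. The groups were separate in both genes. Birc5 was 3.33-fold and Cdca8 3.92-fold lower in adult than in embryonic fibroblasts, and 1.71-fold and 1.99-fold lower in embryonic fibroblasts than in cardiomyocytes. Incenp was 2.10-fold lower in adult than in embryonic fibroblasts and 1.28-fold lower in embryonic fibroblasts than in cardiomyocytes. The second of these calls was lost when any of the 6 embryonic arrays or adult replicate 1 was left out (limma adjusted p from 0.0571 to 0.120).

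Kinases of the centrosome and of mitotic entry were lower in adult than in embryonic fibroblasts in 5 of 5 cases (background 11.2% lower). Plk4, the kinase that starts the duplication of centrioles, had 7.99, 7.67 and 8.22 in adult fibroblasts, 10.11, 10.31 and 10.38 in embryonic fibroblasts, and 10.34, 10.26 and 10.34 in cardiomyocytes. The embryonic groups overlapped and the adult arrays lay well apart from both. Plk4 was 4.95-fold lower in adult than in embryonic fibroblasts (limma adjusted p = 4.61e-06), and it had the smallest difference of the 42 genes between the embryonic groups (-0.05, 95% interval from -0.35 to 0.25). Without embryonic fibroblast replicate 1 that difference was 0.03.

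Plk1, which drives mitotic entry and spindle formation, had 6.71, 6.46 and 7.21 in adult fibroblasts, 8.01, 8.05 and 8.08 in embryonic fibroblasts, and 9.12, 9.20 and 8.98 in cardiomyocytes. Melk, a kinase found in dividing and progenitor cells, had 6.76, 6.55 and 6.87 in adult fibroblasts, 7.73, 7.995 and 8.23 in embryonic fibroblasts, and 8.99, 9.19 and 8.96 in cardiomyocytes. In both genes the groups were separate, at distances of similar size. Plk1 was 2.38-fold and Melk 2.39-fold lower in adult than in embryonic fibroblasts, and both were 2.08-fold lower in embryonic fibroblasts than in cardiomyocytes. Aurka, the kinase of the spindle poles, was 1.69-fold and 1.96-fold lower in these comparisons. Nek2, which separates the centrosomes, was 1.49-fold and 1.34-fold lower, and its second call was lost without embryonic fibroblast replicate 2 (limma adjusted p = 0.0516).

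The spindle motors Kif11, Kif15 and Kif2c were lower in both comparisons, 3 of 3 (background 11.2% and 11.1% lower). Kif11, the motor that pushes the spindle poles apart, had 6.72, 6.48 and 6.90 in adult fibroblasts, 9.46, 9.62 and 10.08 in embryonic fibroblasts, and 10.66, 10.74 and 10.65 in cardiomyocytes. Kif15, which works alongside it, had 6.07, 5.93 and 6.40 in adult fibroblasts, 8.40, 8.45 and 8.66 in embryonic fibroblasts, and 9.19, 9.12 and 9.001 in cardiomyocytes. Both lay much lower in adult fibroblasts than in either embryonic group. Kif11 was 8.10-fold and Kif15 5.17-fold lower in adult than in embryonic fibroblasts, and 1.95-fold and 1.51-fold lower in embryonic fibroblasts than in cardiomyocytes. Kif2c, a kinesin that takes microtubules apart at the kinetochore, had 6.93, 6.95 and 7.05 in adult fibroblasts, 7.81, 7.96 and 7.96 in embryonic fibroblasts, and 9.10, 9.28 and 8.95 in cardiomyocytes. Here the gap between the embryonic groups was the larger by value, 2.29-fold (limma adjusted p = 8.07e-05), beside 1.91-fold between adult and embryonic fibroblasts.

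Spindle assembly factors were lower in 5 of 5 cases in both comparisons (background 11.2% and 11.1% lower). Tpx2, which activates Aurka and nucleates microtubules, had 6.68, 6.71 and 6.99 in adult fibroblasts, 9.17, 9.26 and 9.38 in embryonic fibroblasts, and 9.94, 10 and 9.80 in cardiomyocytes. It was 5.57-fold lower in adult than in embryonic fibroblasts and 1.56-fold lower in embryonic fibroblasts than in cardiomyocytes. Hmmr, the hyaluronan-mediated motility receptor, which also binds spindle microtubules, had 5.38, 5.46 and 5.80 in adult fibroblasts, 7.82, 8.05 and 8.67 in embryonic fibroblasts, and 9.87, 9.38 and 9.67 in cardiomyocytes. Its differences were 6.19-fold between adult and embryonic fibroblasts and 2.75-fold between embryonic fibroblasts and cardiomyocytes (limma adjusted p = 4.26e-05 and 0.00156). Dlgap5, a factor that stabilizes kinetochore fibres, had 6.82, 7.09 and 7.33 in adult fibroblasts, 8.30, 8.29 and 8.499 in embryonic fibroblasts, and 9.56, 9.50 and 9.32 in cardiomyocytes, and its 2 gaps were 2.44-fold and 2.15-fold. Nusap1, a microtubule bundling protein, was 3.23-fold lower in adult than in embryonic fibroblasts and 1.85-fold lower in embryonic fibroblasts than in cardiomyocytes. Aspm, a protein of the spindle poles, was 3.37-fold and 2.09-fold lower.

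Genes of the central spindle and of cytokinesis were lower in adult than in embryonic fibroblasts in 8 of 8 cases and lower in embryonic fibroblasts than in cardiomyocytes in 7 of 8. Anln encodes anillin, the scaffold of the contractile ring. It had 6.06, 5.90 and 6.33 in adult fibroblasts, 9.29, 9.29 and 9.38 in embryonic fibroblasts, and 10.24, 10.22 and 10.15 in cardiomyocytes. Its SD was 0.22 in adult fibroblasts and 0.05 in both embryonic groups. Embryonic fibroblast replicates 1 and 2 held the same value to 3 decimals, which makes the SD of that group small. Anln was 9.36-fold lower in adult than in embryonic fibroblasts (-3.23 ± 0.11, limma adjusted p = 2.97e-07). Kif4, the motor that limits the length of central spindle microtubules, had 5.62, 5.22 and 5.76 in adult fibroblasts, 8.51, 8.71 and 9.05 in embryonic fibroblasts, and 9.72, 9.52 and 9.44 in cardiomyocytes. Kif4 was 9.32-fold lower in adult than in embryonic fibroblasts.

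Ect2 is the exchange factor that switches on RhoA at the cleavage site. Its level was 5.92, 5.88 and 5.72 in adult fibroblasts, 8.77, 8.65 and 9.14 in embryonic fibroblasts, and 10.24, 10.09 and 9.76 in cardiomyocytes. Ect2 was 8.06-fold lower in adult than in embryonic fibroblasts and 2.26-fold lower in embryonic fibroblasts than in cardiomyocytes. The complex that recruits Ect2 consists of Kif23 and Racgap1. Kif23 had 7.75, 8.38 and 7.89 in adult fibroblasts, 10.07, 10.08 and 10.31 in embryonic fibroblasts, and 10.53, 10.51 and 10.35 in cardiomyocytes. The adult arrays stood far below the others, and the embryonic groups were separate by a narrow margin. Kif23 was 4.42-fold lower in adult than in embryonic fibroblasts and was not called between the embryonic groups (-0.31, 95% interval from -0.66 to 0.04). Racgap1 was 2.62-fold and 1.73-fold lower in the 2 comparisons.

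Prc1, which bundles the microtubules of the central spindle, was 8.45-fold lower in adult than in embryonic fibroblasts (limma adjusted p = 2.29e-06) and 1.52-fold lower in embryonic fibroblasts than in cardiomyocytes (limma adjusted p = 0.0214). Its 3 embryonic fibroblast arrays all held 9.69. The kinesins Kif20a and Kif20b, which act in late mitosis and cytokinesis, were 1.87-fold and 5.87-fold lower in adult than in embryonic fibroblasts, and 1.77-fold and 1.69-fold lower in embryonic fibroblasts than in cardiomyocytes. The embryonic calls of Prc1 and Kif20b were lost without embryonic fibroblast replicate 1 or 2 or cardiomyocyte replicate 1 or 2, and that of Prc1 also without embryonic fibroblast replicate 3 (limma adjusted p from 0.0538 to 0.0862).

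The genes differed in how the whole difference between adult fibroblasts and cardiomyocytes was divided by the embryonic fibroblasts. The step between adult and embryonic fibroblasts made up 43.8% to 98.0% of it, with a median of 71.7%. A limma contrast of the 2 steps against each other, added after the levels were seen, called the adult step larger in 21 of 42 genes and the embryonic step larger in 0. Both steps run downward in the 42 genes, so the sign of the contrast gives the larger step. Over all genes the signed contrast was called below 0 in 5.28% and above 0 in 2.55%. Those genes can run in either direction, so these are not shares with a larger adult or embryonic step. The embryonic fibroblast arrays enter both steps. The share was highest in Plk4 at 98.0%, and was 87.9% in Smc2, 87.4% in Kif23, 84.0% in Top2a and 83.7% in Prc1, all of them called. It was lowest in Kif2c and Aurka at 43.8% each, and lay at 49.4% in Aurkb, 52.2% in Kif20a, 52.4% in Cdc20, 53.8% in Dlgap5, 54.3% in Plk1 and Melk and 58.0% in Nek2, none of them called. Differences of dim probes are compressed on the RMA scale, and in adult fibroblasts the means of 20 of the 42 genes were under the 30th percentile of the probes, against 0 of 42 in the embryonic groups. The part of this compression in the steps was not tested.

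Of 103 other genes of mitosis that were measured, 63 were lower and 1 was higher in adult than in embryonic fibroblasts, with a median log2 difference of -0.59. Between embryonic fibroblasts and cardiomyocytes 46 were lower and 5 higher, with a median of -0.31. The count of 46 was 27 without embryonic fibroblast replicate 1 and 29 without replicate 2, where 7.67% and 7.28% of all genes were lower. With all arrays, 11.2% of all genes were lower and 8.34% higher between the fibroblast groups, and 11.1% and 10.3% between the embryonic groups. Of 35 other kinetochore and checkpoint genes, 26 were lower in adult than in embryonic fibroblasts and 17 lower in embryonic fibroblasts than in cardiomyocytes, and 0 were higher in either. The largest differences between the fibroblast groups were those of the centromere gene Cenph (-3.12 ± 0.16), the checkpoint gene Mad2l1 (-3.10 ± 0.19) and Casc5, the platform of the outer kinetochore (-2.91 ± 0.18). Between the embryonic groups they were those of Cenpk (-1.30 ± 0.26), Spc24 (-1.07 ± 0.17) and Zwilch (-1.04 ± 0.17). Among 33 other spindle, kinase and cytokinesis genes, 21 and 20 were lower in the 2 comparisons. Shcbp1 (-3.07 ± 0.30), the augmin gene Haus1 (-2.31 ± 0.13) and Arhgap11a (-2.17 ± 0.21) led between the fibroblast groups, and Depdc1a (-1.25 ± 0.26), Haus1 (-1.20 ± 0.13) and Knstrn (-1.08 ± 0.13) between the embryonic ones. Haus6 was higher in embryonic fibroblasts than in cardiomyocytes (0.32 ± 0.10, limma adjusted p = 0.0496).

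The anaphase-promoting complex, the ubiquitin ligase that Cdc20 activates, had 10 of 16 genes lower in adult than in embryonic fibroblasts (median -0.58). Anapc13 (-2.24 ± 0.38), the inhibitor Fbxo5 (-2.04 ± 0.25) and the E2 enzyme Ube2c (-1.14 ± 0.12) led that list. Between the embryonic groups 4 of its genes were lower and 1, Cdc16, was higher (0.32 ± 0.09). Of 15 genes of cohesin, the ring that holds sister chromatids together, its regulators, separase (Espl1) and securin (Pttg1), 3 were lower and 1 higher in adult than in embryonic fibroblasts (median -0.11). The acetyltransferase Esco2 was lower (-1.33 ± 0.16), as were sororin (Cdca5, -0.97 ± 0.09) and Pds5b (-0.52 ± 0.12), and Esco1, a relative of Esco2, was higher (0.63 ± 0.09). Between the embryonic groups Esco2 (-1.45 ± 0.16), Cdca5 (-0.32 ± 0.09) and separase (Espl1, -0.31 ± 0.09) were lower, and Smc3 (0.24 ± 0.07), Nipbl (0.36 ± 0.10) and Esco1 (0.31 ± 0.09) were higher. Of 4 other condensin subunits, 3 were lower in adult than in embryonic fibroblasts, led by Ncapg2 (-2.21 ± 0.12), and 2 had lower levels in embryonic fibroblasts than in cardiomyocytes. For all of these lists the background was 11.2% lower and 8.34% higher between the fibroblast groups, and 11.1% and 10.3% between the embryonic groups.

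**Figure D4:**
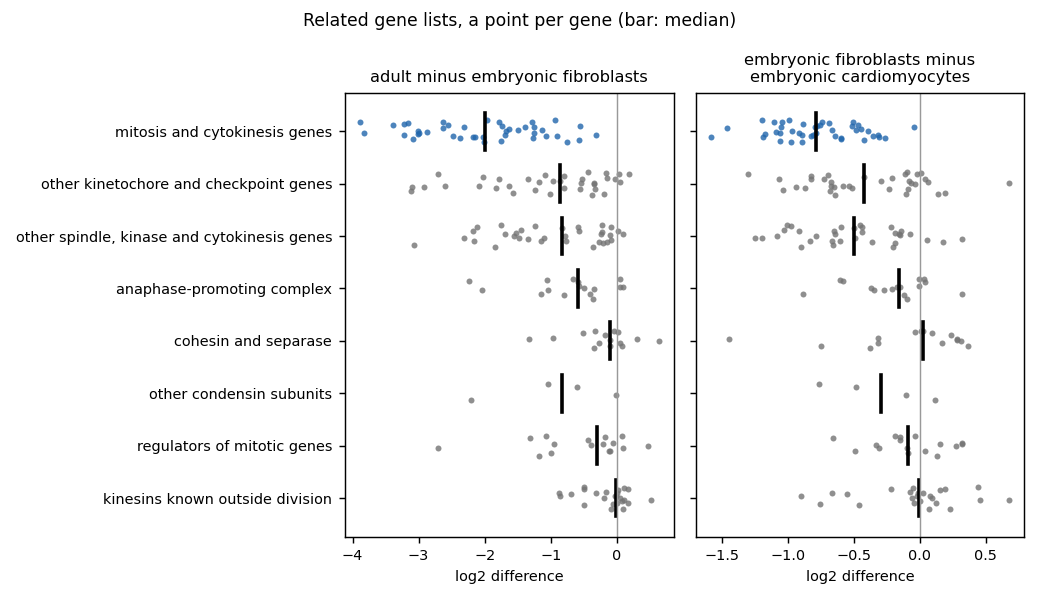
Log2 differences of the 42 genes and of 7 related lists, a point per gene with the median as a bar, between adult and embryonic fibroblasts (left) and between embryonic fibroblasts and embryonic cardiomyocytes (right). The median of the 42 genes is -1.99 on the left and -0.79 on the right, and those of the kinesins known outside division are -0.02 and -0.007.

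Kinesins are a family of microtubule motors of which some work in mitosis and others chiefly in transport or cilia. A list of 24 genes was chosen for work known mainly of the second kind, the adaptor Kifap3 included. Roles in mitosis were not excluded for these genes, Kif2a among them. The list was set beside the mitotic kinesins Kif2c, Kif4, Kif11, Kif15, Kif20a, Kif20b, Kif23 and Cenpe. These 8 were lower in adult than in embryonic fibroblasts, by 1.87-fold to 9.32-fold. Of 4 further mitotic kinesins outside the 42 genes, Kif14, Kif18a and Kif22 were lower by 2.36-fold, 2.74-fold and 2.15-fold, and Kif18b was not called (-0.21, 95% interval from -0.37 to -0.04, limma adjusted p = 0.0813). Of the 24 other genes, 6 were lower and 1 was higher, with a median of -0.02. The largest of these differences were in Kif21a (-0.87 ± 0.19), Kif13a (-0.86 ± 0.08) and Kifap3 (-0.70 ± 0.10), and Kif13b was higher (0.51 ± 0.10). Between the embryonic groups 4 of the 24 were lower, led by Kif13a (-0.90 ± 0.08), Kif16b (-0.76 ± 0.11) and Kif26b (-0.67 ± 0.09). Kif2a, Kif13b and Kif27 were higher (0.68 ± 0.09, 0.45 ± 0.10 and 0.44 ± 0.12). The background was 11.2% lower and 8.34% higher between the fibroblast groups, and 11.1% and 10.3% between the embryonic groups.

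Among 16 regulators of mitotic genes, 7 were lower and 0 higher in adult than in embryonic fibroblasts (background 11.2% lower and 8.34% higher). The repressor E2f8 (-2.71 ± 0.17), the pocket protein gene Rbl1 (-1.31 ± 0.21) and Tfdp2 (-1.18 ± 0.20), a partner of E2F factors, showed the largest differences. The activators of mitotic genes Foxm1 (-1.07 ± 0.11, limma adjusted p = 0.000128) and Mybl2 (-0.44 ± 0.09, limma adjusted p = 0.00829) were also lower, as was the MuvB subunit gene Lin9 (-0.995 ± 0.16). The other MuvB subunit genes of the list were not called there, with log2 differences of 0.09 for Lin37, 0.08 for Lin52, -0.22 for Lin54 and -0.39 for Rbbp4. Between embryonic fibroblasts and cardiomyocytes, 0 of the 16 regulators were lower by limma and 1, E2f7, was higher (0.32 ± 0.09, limma adjusted p = 0.0377). Of all genes, 11.1% were lower and 10.3% higher there. Foxm1 and Mybl2 had log2 differences of -0.19 ± 0.11 and -0.15 ± 0.09 there, which were not called (limma adjusted p = 0.294 and 0.315).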

How the data were processed

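The authors made the deposited log2 values from Affymetrix mouse Gene 1.0 ST arrays with RMA, as stated per the submitters' processing notes. They span 2.70 to 14.20, and log2 was inferred from this span. The sources used here give no RMA version, log base, genome build or annotation. Platform annotation gave 1 gene symbol for 21776 of 28767 probes, several for 1618 and none for 5373, and only those with 1 were used. The probe with the highest mean represented each of 19933 genes. Precision is limited by the number of arrays, 3 in each group.

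Groups and replicate numbers came from the sample titles. Differences were tested with limma 3.58.1 under R 4.3.3 (lmFit, eBayes, a mean per group, all 9 arrays, no filter on dim genes, median 9.21 degrees of freedom), which was also tested on simulated data. P-values were two-sided and adjusted by Benjamini-Hochberg over all genes, with calls at an adjusted p under 0.05. The members and lists were chosen with earlier results of these data known. Values on every array are given for the 2 called members with the largest differences in each role and comparison and for members not called. From other lists, up to 3 called genes in each comparison, and those that moved against the list, are named, and Foxm1, Mybl2, the MuvB subunit genes and 4 mitotic kinesins were added after their values were seen. Same-numbered arrays of different groups did not deviate together (correlations from -0.16 to 0.19), so the numbers were not treated as pairs. Alternatives covered the block, normalization, dim genes, probe choice, array weights, the groups fitted and each array left out. Python 3.11.15 with matplotlib 3.10.9 made the figures. Promoter sequences are from RefSeq (GRCm38.p6).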

Additional observations from a re-analysis of the deposited data

How the results depend on the processing

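Results were recomputed with replicate number as a block, centred arrays, quantile normalization, a filter at the 30th percentile of the probes, the mean of all probes of a gene, array weights, only the 2 groups compared, and each array left out. Between adult and embryonic fibroblasts the number of lower members stayed at 41 in the 7 alternatives that kept all arrays, the replicate block among them, and was 41 or 42 with an array left out. Between embryonic fibroblasts and cardiomyocytes it was 35 with the replicate block, up to 40 with these groups fitted alone, and 24 to 37 with an array left out. For adult fibroblasts against cardiomyocytes it was 42 in every alternative run. The other mitotic genes gave 55 to 69, 27 to 52 and 67 to 75 lower genes in the same order of comparisons with an array left out. The difference of Plk4 between the embryonic groups, not called, was -0.103 to 0.034 with an array left out, above 0 only without embryonic fibroblast replicate 1. Calls between the embryonic groups were lost under some alternative in 10 members, all of them without embryonic fibroblast replicate 2, and gained in 6. With the replicate block Cenpa was lost (limma adjusted p = 0.0814) and Ncapg and Bub1 were gained (0.0211 and 0.0416). Over all genes, lower calls between the embryonic groups numbered 2212, against 1452 without embryonic fibroblast replicate 2 and 3362 with array weights, and higher calls 2054, against 3103 with array weights. Higher calls between the fibroblast groups numbered 1662, against 2519 with array weights. Where arrays were left out, fewer samples entered the fit. The deposited values hold no background for a probe, so dim levels in adult fibroblasts limit how large a difference can be read.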
